A study of Mus musculus with 6 samples.

Results

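The 8 genes described here were H2-Aa, H2-Ab1, H2-Eb1, H2-DMa, H2-DMb1, Cd74, Ciita and Cd207, the genes of the MHC class II pathway and of its classical epidermal carrier, the Langerhans cell. They were chosen by name and found by gene symbol in the deposited gene table, which lists 17866 genes, and all 8 were present. The libraries came from the separated corneal epithelium of C57BL/6 mice aged 6 months, 3 from wild-type mice (WT) and 3 from mice labelled Rela-/- (KO). Rela encodes an NF-κB subunit. According to the study, the mutants carried Krt14-Cre and floxed Rela alleles, so deletion was directed at cells that use the Krt14 promoter and not at the whole animal. Both groups were of one age and neither was treated. Rela itself was counted at 1871, 1844 and 1855 in WT and at 318, 223 and 313 in KO (log2 fold change -2.60, SE 0.141), so the labels held in each library. Library totals lay between 20158404 and 20880347 estimated counts, at which 3 counts equal about 0.14 to 0.15 counts per 1000000 (CPM).

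Class II molecules are pairs of an alpha and a beta chain that display peptides from endosomes to CD4+ T cells. H2-Aa and H2-Ab1 encode the I-A pair, and H2-Eb1 encodes the I-E beta chain, whose partner H2-Ea is not made in C57BL/6 mice. Cd74, the invariant chain, fills the groove until the complex reaches the endosome, where H2-DM, the pair made from H2-DMa and H2-DMb1, exchanges its remnant for peptide. Ciita, the class II transactivator, is the factor on which transcription of most of these genes depends. It does not bind DNA itself and is held at class II promoters by a complex of RFX, CREB and NF-Y proteins on the X and Y boxes. Dendritic cells, B cells and macrophages make class II constitutively, and many other cells do so after interferon gamma. Langerhans cells are dendritic cells of stratified epithelia, and Cd207 encodes langerin, the lectin of their Birbeck granules. In a normal cornea such cells lie mainly toward the limbus.

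The promoter boxes through which Ciita acts are shown first because the genes that share them did not change alike. RefSeq promoter windows (build GRCm38.p6, 250 bases before to 50 after the gene start) were found for 5 of the 8 genes, H2-Aa, H2-Eb1, H2-DMa, H2-DMb1 and Cd207. The stretches of H2-Aa (chr17:34287855-34287909, minus strand), H2-Eb1 (chr17:34305770-34305824, plus strand) and H2-DMb1 (chr17:34153091-34153146, plus strand), and of H2-DMb2 (chr17:34145120-34145175, plus strand), a close copy of H2-DMb1, read as follows, 5′ to 3′ on the coding strand.
H2-Aa: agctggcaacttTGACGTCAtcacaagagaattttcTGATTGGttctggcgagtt
H2-Eb1: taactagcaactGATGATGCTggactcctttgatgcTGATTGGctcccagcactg
H2-DMb1: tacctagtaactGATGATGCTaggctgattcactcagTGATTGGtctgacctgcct
H2-DMb2: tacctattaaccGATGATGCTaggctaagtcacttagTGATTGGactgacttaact
The first capitals in each line mark an X box motif, TGACGTCA in H2-Aa and GATGATGCT in the other 3, and the second mark the Y box core TGATTGG. The gap between them was 16 bases in H2-Aa, H2-DMb1 and H2-DMb2 and 15 in H2-Eb1, and the Y box core began 50, 61, 63 and 92 bases before the gene start in H2-Aa, H2-Eb1, H2-DMb1 and H2-DMb2. On either strand, TGATTGG was in 7.82% of all 32851 windows, TGACGTCA in 1.79% and GATGATGCT in 0.274%, and no motif overlapped another in the stretches shown. An X motif 10 to 30 bases before a Y box core, on 1 strand, was found in 9 windows, or 0.0274%, 4 of them those printed here. These motifs were chosen with the sequences in view, so the share describes the windows and tests nothing. Neither of the 2 windows of H2-DMa and not the window of Cd207 held TGATTGG, which says only that these letters are not there.

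The transcripts of both I-A chains, the I-E beta chain and the invariant chain were 8.05 to 14.9 times higher in KO epithelium in mean CPM, and those of Ciita and Cd207, which were close to the detection limit in WT, were 9.05 and 19.5 times higher. The 2 H2-DM chains stood apart. H2-DMa rose 1.76-fold, and H2-DMb1, whose promoter holds the same pair of boxes as that of H2-Eb1, had ranges that overlapped between the groups.

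H2-Aa (chromosome 17, 34282751 to 34287771, minus strand, as the table gives it on GRCm38) was counted at 53, 20 and 58 in WT and at 611, 450 and 754 in KO. The lowest KO library was well above the highest WT library. The mean rose from 2.03 ± 0.970 to 30.4 ± 7.52 CPM (SD, n = 3 each), a log2 fold change of 3.90 (SE 0.342, edgeR quasi-likelihood test, adjusted p = 3.2e-05). A correction for gene length, which moved the median of all genes to -0.28, gave 3.15.

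Its partner H2-Ab1 (chromosome 17, 34263227 to 34269418, plus strand) was counted at 55, 30 and 54 in WT and at 670, 330 and 745 in KO. Again the groups did not overlap, and replicate 2 was the lowest library of each. The mean rose from 2.16 ± 0.660 to 29.2 ± 11.1 CPM, a log2 fold change of 3.76 (SE 0.356, edgeR adjusted p = 4.7e-05), and 3.12 under the length correction.

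H2-Eb1 (chromosome 17, 34305867 to 34316674, plus strand) was counted at 42, 32 and 57 in WT and at 475, 262 and 465 in KO, with no overlap. The mean rose from 2.04 ± 0.613 to 20.1 ± 6.06 CPM, a log2 fold change of 3.30 (SE 0.296, edgeR adjusted p = 3.6e-05). An antisense gene, Gm20513, shares 2204 bases of its range, and since strand is not stated for these libraries, reads of the pair cannot be told apart.

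Cd74 (chromosome 18, 60800770 to 60812652, plus strand) was the most abundant of the 8 genes in every library, with counts of 194, 99 and 221 for WT and of 1538, 813 and 1487 for KO. The mean rose from 7.99 ± 3.03 to 64.3 ± 20.4 CPM, a log2 fold change of 3.01 (SE 0.335, edgeR adjusted p = 1.09e-04). Even the lowest KO library, replicate 2, was above every WT library.

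H2-DMa (chromosome 17, 34122719 to 34139101, plus strand), the alpha chain of the peptide exchanger, was counted at 57.3, 47.7 and 52.0 in WT and at 80.6, 90.3 and 85.0 in KO. The groups did not overlap, and both were tight, with means of 2.44 ± 0.190 and 4.28 ± 0.210 CPM. The log2 fold change was 0.81 (SE 0.183, edgeR adjusted p = 0.0047). Counts were not whole in 5 libraries, so RSEM divided some reads between this gene and others. The gene's range overlaps an antisense gene and a processed pseudogene.

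H2-DMb1 (chromosome 17, 34153191 to 34160229, plus strand), the beta chain, was counted at 115, 90 and 78 in WT and at 107, 69.7 and 88.2 in KO. The means were 4.38 ± 0.805 and 4.44 ± 0.955 CPM, a log2 difference of 0.02 (SE 0.224, edgeR adjusted p = 0.953), and the sign of that difference turned under 8 of 17 alternative settings. A change of the size seen for the I-A chains lay far outside this error. H2-DMb2, with 0 counts in all WT libraries, was counted at 6.32, 7.33 and 18.8 in KO, and RSEM divides reads between these near-identical copies, so the level of each is uncertain. Added together, the KO counts of the copies still did not approach the folds of the classical chains.

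Ciita (chromosome 16, 10466860 to 10528606, plus strand) was counted at 2, 2 and 5 in WT and at 29, 14 and 33 in KO. The groups did not overlap, but WT rests on 9 reads in all. The ratio of the pooled counts per TMM-scaled library size was 9.11 (95% exact interval 4.55 to 20.7, counting error only). The log2 fold change was 3.13 (SE 0.526, edgeR adjusted p = 0.00102). The gene shares 26076 bases of its range with Dexi on the other strand.

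Cd207 (chromosome 6, 83671207 to 83677857, minus strand) was counted at 0, 1 and 2 in WT and at 13, 16 and 26 in KO. The ratio of pooled counts, scaled in the same way, was 19.8 with a 95% exact interval of 6.42 to 98.8, again for counting error only. The log2 fold change was 4.14 (SE 0.660, edgeR adjusted p = 7.71e-04), and it became 5.0 without WT replicate 3, which held 2 of the 3 WT reads. Langerin transcripts were thus few even in KO, at 0.919 ± 0.334 CPM.

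**Figure D1:**
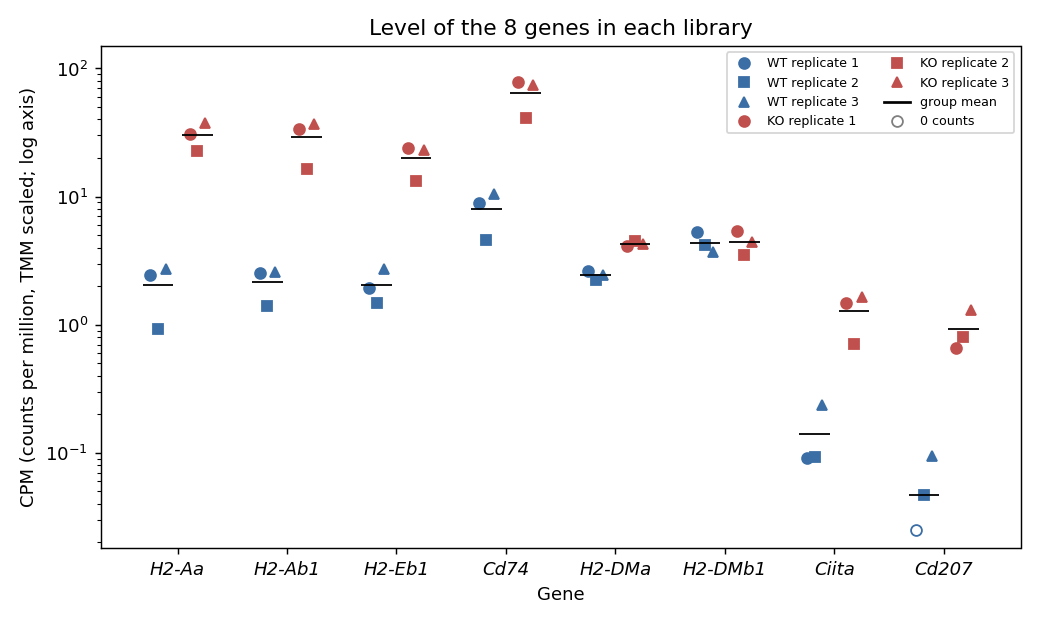
CPM of the 8 genes on a log axis for each of the 3 WT (blue) and 3 KO (red) libraries, with the group mean as a black bar and a count of 0 as an open symbol. The groups overlap for H2-DMb1 and are apart for the other genes shown. How many of all genes are apart was not counted, so the separation is a description of these genes only. By a different measure, adjusted p, 31.8% of all genes tested were called higher in KO. Replicate 2 (squares) is the lowest KO library for H2-Aa, H2-Ab1, H2-Eb1, Cd74, H2-DMb1 and Ciita.

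In all, 7 of the 8 genes passed an adjusted p of 0.05 with a higher level in KO, none was lower, and H2-DMb1 did not pass. The comparison as a whole was broad: 31.8% of the 13305 genes tested were higher in KO and 30.2% were lower, and the median log2 fold change over all of them was 0.01. By the stricter criteria of the study's methods, a change of 2-fold or more with an adjusted p no larger than 0.001, 11.6% of genes were higher, and 5 of the 8 genes, H2-Aa, H2-Ab1, H2-Eb1, Cd74 and Cd207, were among them. Ciita and Cd207 entered the test only through their KO libraries. Such entry favours a higher level in KO, so the count over the genes that entered is given as a description.

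**Figure D2:**
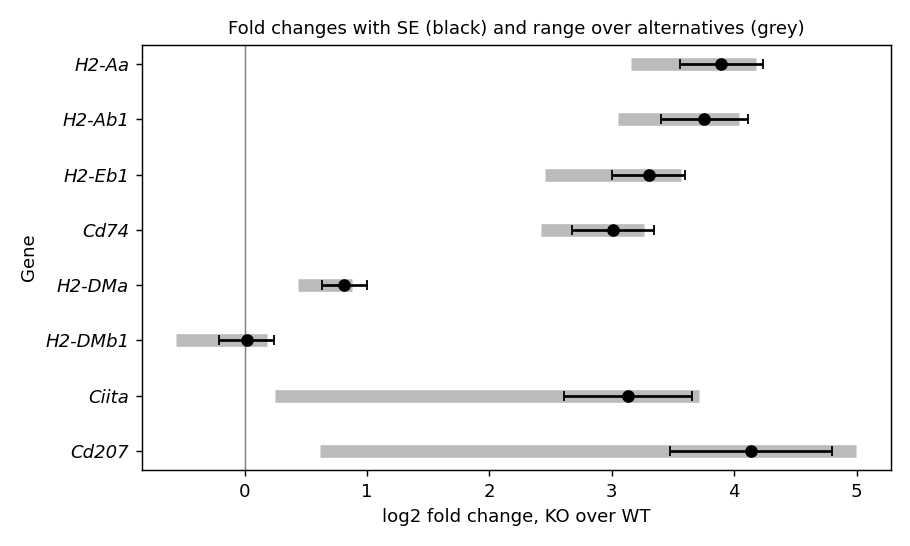
Fold change of each gene in KO over WT on the log2 scale, with its standard error in black and the range over the alternative settings as a grey bar. The classical chains and Cd74 stay between 2.42 and 4.18 under every setting, H2-DMb1 crosses 0, and the low ends of Ciita (0.25) and Cd207 (0.61) come from the pseudocount of 1 added to FPKM, which compresses low values.

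The order of the levels also differed between the groups. Per transcript length, as FPKM of the authors, Cd74 was highest in WT at 6.61 ± 2.51 (SD, n = 3) and H2-DMb1 was next at 3.57 ± 0.729. H2-Aa at 2.0 ± 0.941, H2-Ab1 at 1.90 ± 0.578 and H2-Eb1 at 1.26 ± 0.357 followed within each other's spread, and H2-DMa stood at 0.850 ± 0.217. In KO, Cd74 was still highest at 49.3 ± 14.7 FPKM, then came H2-Aa at 27.8 ± 6.54 and H2-Ab1 at 23.8 ± 8.74, which did not differ beyond their spread, and H2-Eb1 at 11.6 ± 3.33. H2-DMb1 was now below all 3 classical chains at 3.36 ± 0.666, H2-DMa was at 1.49 ± 0.0954, Cd207 at 0.583 ± 0.212 and Ciita at 0.227 ± 0.0839.

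Ratios taken within a library cancel its depth and show how evenly the genes changed. Relative to H2-Ab1, H2-Aa was at 1.08, 0.748 and 1.2 in WT and at 1.02, 1.53 and 1.13 in KO, so the I-A pair was near parity in both and the ranges overlapped. The ratio of H2-Eb1 to H2-Ab1 had a mean of 0.680 ± 0.122 in WT and 0.502 ± 0.0602 in KO, also with overlap. For Cd74 the ratio was 3.35, 3.06 and 3.85 in WT and 2.15, 2.33 and 1.87 in KO, without overlap, so the invariant chain rose less than the chain it accompanies. The distance was far larger for H2-DM. H2-DMa was at 0.454 ± 0.0317 of H2-Ab1 in WT and 0.0697 ± 0.0296 in KO, and H2-DMb1 at 2.01 ± 0.721 and 0.151 ± 0.0429. The beta chain was also 4.40 ± 1.36 times the alpha chain in WT and 2.26 ± 0.498 times in KO, again without overlap. These ratios of FPKM were not tested one by one.

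**Figure D3:**
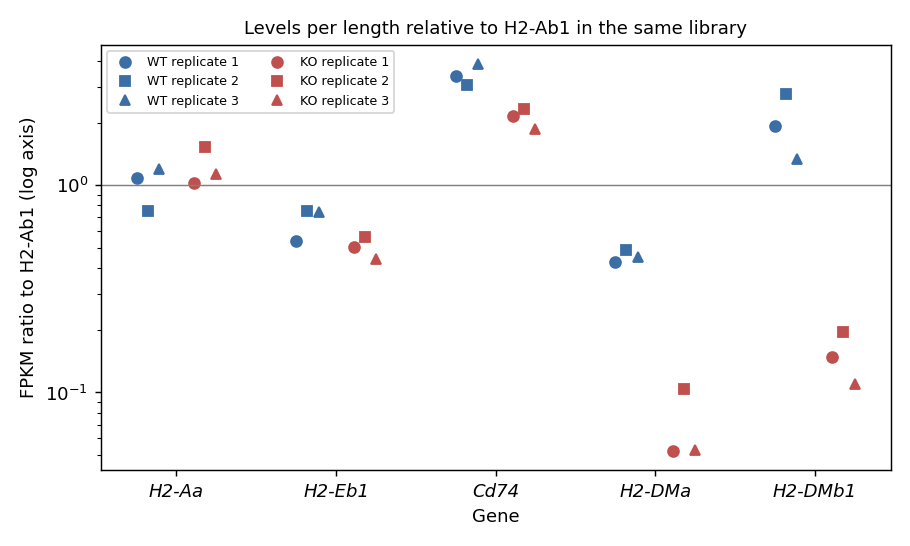
FPKM of 5 genes divided by the FPKM of H2-Ab1 in the same library, on a log axis, for WT (blue) and KO (red). H2-Aa and H2-Eb1 overlap between the groups, Cd74 is lower in KO in every library, and H2-DMa and H2-DMb1 fall from means of 0.454 and 2.01 to 0.0697 and 0.151.

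The 8 genes together took 0.00219% ± 0.000558 of all estimated counts in WT and 0.0149% ± 0.00415 in KO, 6.81 times as much. Cd74 alone made up 36.7% ± 5.63 of these counts in WT and 41.3% ± 2.09 in KO. Thus the whole group stayed a trace in the epithelial RNA of both genotypes.

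The 6 libraries did not vary in step for all members. For H2-Aa, H2-Ab1, H2-Eb1 and Cd74, WT replicate 2 was at 36.0% to 64.4% of the mean of the other WT libraries, and KO replicate 2 at 46.6% to 65.9% of the other KO libraries. Ciita in KO replicate 2 was at 45.1%. H2-DMa was not low there, at 88.0% in WT and 108.3% in KO, and among other genes Ptprc was at 47.7% in WT and 76.2% in KO, B2m at 144.4% and 69.3%, and the leukocyte adaptor Tyrobp at 133.9% and 100.7%. The titles do not say whether the libraries numbered 2 in WT and KO shared a day or batch. WT replicate 2 also stood apart in the keratin gene Krt14, with 25395 counts against 5207 and 6712 in the other WT libraries. The classical chains kept their calls without either library.

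The remaining chains of the class II locus were removed by the filter on low counts. Without that filter 3 of these 4 genes were called higher, and DESeq2 called 2. H2-Oa and H2-Ob encode H2-O, which restrains H2-DM and is typical of B cells. H2-Oa was counted at 0, 0 and 2 in WT and 4, 3 and 9 in KO, and H2-Ob at 1, 0 and 0 in WT and 5, 6 and 4 in KO. H2-Eb2 had at most 2 counts in WT and at most 3.01 in KO, and its groups overlapped. No row was found for H2-Ea.

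The factors that hold Ciita at the X and Y boxes did not rise as a group. Of 7 genes tested, 1 was higher, 2 were lower and 4 did not pass, with a median log2 fold change of -0.11. The counts of this list and of those that follow stand beside 31.8% higher and 30.2% lower over all tested genes. Rfx5, a DNA-binding RFX subunit without which class II is lost, fell from 925, 814 and 998 counts to 467, 546 and 421 (log2 fold change -0.82, SE 0.130, edgeR adjusted p = 7.33e-04). Of the NF-Y subunits, which bind the Y box, Nfya fell (-0.74, SE 0.115) and Nfyc rose (0.73, SE 0.0948). The rest, Rfxap, Rfxank, Nfyb and Creb1, lay between -0.18 and 0.21 on the log2 scale.

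The interferon gamma axis, which induces Ciita, was lower in most of its parts. Of 8 genes tested, 6 fell, 1 rose and 1 did not pass, and the median log2 fold change was -0.91. Irf1, which acts on the interferon-responsive promoter of Ciita, fell from 5875, 4780 and 6068 counts to 2070, 2612 and 3204 (-0.98, SE 0.165, edgeR adjusted p = 0.00105). The groups did not overlap. The receptor chain Ifngr2 (-0.79), the kinases Jak1 (-0.92) and Jak2 (-0.92) and Irf2 (-0.91) also fell, whereas Ifngr1, with 1129 to 2147 counts in WT and 1225 to 1763 in KO, did not pass (0.05, SE 0.229). Socs1, an inhibitor of this signalling, rose (1.08, SE 0.291, edgeR adjusted p = 0.0116), but not under the length correction (0.49, adjusted p = 0.143). Ifng itself had 0 counts in 5 libraries and 1 in KO replicate 3.

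Genes of endosomal processing moved in both directions. Of 8 tested, 3 rose, 1 fell and 4 did not pass, with a median of 0.10. Over all tested genes, 31.8% were higher and 30.2% lower. Ctss, the cathepsin that trims the invariant chain in antigen-presenting cells, was counted at 246, 187 and 263 in WT and 295, 359 and 432 in KO (0.75, SE 0.179), the thiol reductase Ifi30 rose by 0.87 (SE 0.175) and Ctsd by 0.98 (SE 0.115). Under the length correction the balance turned to 1 higher and 3 lower: Ctss (0.20, adjusted p = 0.335) and Ifi30 (0.04, adjusted p = 0.842) no longer passed, and Ctsl (-0.68, adjusted p = 0.00317) and Ctsh (-0.51, adjusted p = 0.00152) were lower. DESeq2 called 5 higher of 9. Lgmn, an asparaginyl endopeptidase, fell (-0.85, SE 0.122). March1, a ubiquitin ligase that removes class II from the surface, was below the filter, with counts of 1, 0 and 1 for WT and of 16, 12 and 10 for KO.

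Of the costimulatory molecules, Cd80 was counted at 21, 15 and 19 in WT and 61.0, 70 and 64 in KO (1.93, SE 0.237), and Cd86 at 4, 0 and 5 in WT and 11, 18 and 21 in KO (2.53, SE 0.652, and 1.97 without WT replicate 2). Both were separate between the groups, and Cd86 entered the test through KO only. Icosl (-1.41, SE 0.107) and Cd274, which encodes PD-L1 (-1.05, SE 0.245), fell, and both are ligands that epithelial cells also make. Cd40 had 0 counts in WT and 2, 2 and 6 in KO.

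**Figure D4:**
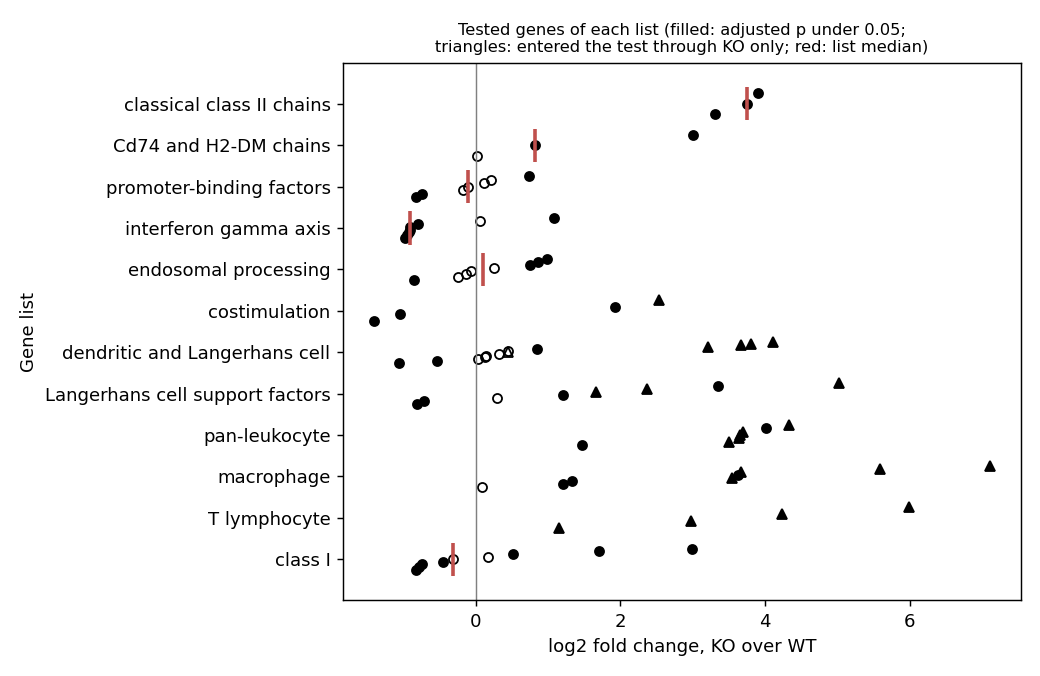
Log2 fold changes in KO over WT of the tested genes of 12 lists, each symbol a gene, filled where the adjusted p was under 0.05, a triangle where the gene entered the test through KO only, and with the median in red for lists without such genes. The classical class II chains have a median of 3.76, while the promoter-binding factors (-0.11) and the interferon gamma axis (-0.91) lie lower.

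The markers of Langerhans and other dendritic cells beside Cd207 did not move as one. Of 20 listed genes 13 were tested, of which 5 rose, 2 fell and 6 did not pass. Itgax, Csf1r, Itgae and Runx3, 4 of those that rose, entered the test through KO only. Itgax, the CD11c integrin chain, was counted at 14, 6 and 11 in WT and 119, 104 and 185 in KO (3.81, SE 0.353). Csf1r, the receptor through which Langerhans cells are maintained, stood at 19.4, 2 and 17 in WT and 148, 151 and 154 in KO (3.67, SE 0.461). Itgae, the CD103 chain, rose by 4.11 (SE 0.593, and 4.73 without WT replicate 3), and Runx3, a factor needed for Langerhans cells, by 3.20 (SE 0.450). Both genes are used by T cells too. By contrast Ly75, which encodes DEC-205, gave 45, 66 and 42 counts for WT and 70, 52 and 55 for KO (0.32, SE 0.255) and did not pass, and neither did Spi1 (0.45, SE 0.244). The 2 that fell, Epcam (-0.54) and Id2 (-1.06), and Cd24a, which rose (0.84), were abundant in every library, and epithelial cells express all 3. Ccr7, Batf3, Clec9a and Cd209a had 0 counts in all WT libraries, and of these Ccr7 reached 6, 3 and 15 in KO. Beside Cd207, none of the markers that rose is particular to Langerhans cells.

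Factors from the epithelium that maintain Langerhans cells moved in both directions. Of 8 tested, 5 rose, 2 fell and 1 did not pass, but 3 of those that rose entered through KO only. Of the other 5, 2 rose, 2 fell and 1 did not pass. Il34, the Csf1r ligand made by keratinocytes, was counted at 15, 13 and 25 in WT and at 182, 179 and 146 in KO (3.36, SE 0.267, edgeR adjusted p = 1.91e-05), while Csf1, the other ligand, did not pass (0.29, SE 0.156). Tgfb3 rose from 5, 4 and 3 counts to 114, 141 and 117 (5.02, SE 0.276), and Tgfb2 (1.66), Bmp7 (1.2) and Tslp (2.37) also rose. Tslp gave 3.06 without WT replicate 2, which held 23 of its WT counts beside 8 and 8, and 1.77 without KO replicate 2. Tgfb2, Tgfb3 and Tslp entered the test through KO only. Tgfb1, on which Langerhans cells depend, fell (-0.82, SE 0.187), as did Itgb6 (-0.71, SE 0.115), a chain of the integrin that activates it.

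Leukocyte markers of several lineages moved with the class II genes, and their part in the result was not tested. In bulk RNA, fewer or more cells of a type and less or more RNA per cell cannot be told apart. Many of these markers reached the level needed for testing in all KO libraries but not in all WT libraries. Such entry favours genes with higher KO levels, so their counts are descriptions. All 7 pan-leukocyte genes rose, 5 of them such genes, and their summed level was 2.74 to 3.93 CPM in WT and 33.2 to 42.1 in KO. Of the 8 macrophage genes tested 7 rose, 4 of them such genes, and Cd68 did not pass (0.09, SE 0.149). The summed level of the 10 macrophage genes was 75.4 to 92.5 CPM in WT and 175 to 234 in KO. Adgre1, which encodes F4/80, was counted at 1, 0 and 1 in WT and 31, 33 and 42 in KO. The 4 T lymphocyte genes tested were all such genes. Thy1, which stromal cells make too, rose by 5.99 (7.12 without WT replicate 2), Cd3g by 4.24 (5.09 without WT replicate 2) and Cd3d by 2.98. Cd8a rose by 1.14 (edgeR adjusted p = 0.0152) but did not pass with DESeq2 (adjusted p = 0.0589) or without WT replicate 2, WT replicate 3 or KO replicate 3 (0.0568, 0.0563 and 0.0604). The sum of 8 T lymphocyte genes was 0.852 to 1.07 CPM in WT and 7.72 to 16.2 in KO. B cell markers were near 0 in both groups. Cd79a and Ms4a1 had no count in WT and at most 2 in any KO library, and Cd79b, at 18, 22 and 10 in WT and 13, 12 and 24 in KO, did not pass (0.08, SE 0.410). The sum of the 5 B cell genes in the table was 0.568 to 1.02 CPM in WT and 0.760 to 1.35 in KO. Of the other marker lists, neutrophil and mast cell genes gave 2 higher and 3 lower of 5 tested (2 lower without WT replicate 3, KO replicate 1 or KO replicate 2), endothelial genes 1 higher of 2, fibroblast genes 3 higher, all of them through KO only, and 1 lower of 4, melanocyte genes 2 lower of 3, and corneal epithelial genes 1 higher and 5 lower of 6. Fibroblast genes gave 2 higher without KO replicate 2 or 3, and 4 without WT replicate 2 or KO replicate 1. They gave 4 higher with DESeq2 and 5 without the filter. Corneal epithelial genes gave 4 lower at a mean count of 50 and without any 1 library except KO replicate 1. Cdh1 did not pass in those settings.

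Replicate 2 was the lowest KO library in each of the following lists, but by different amounts. The classical chains summed to 88.9, 52.3 and 97.9 CPM in replicates 1, 2 and 3, and the T lymphocyte genes to 16.2, 7.72 and 15.6. The pan-leukocyte genes, at 34.7, 33.2 and 42.1, and the macrophage genes, at 234, 175 and 180, fell less there. With 3 libraries these orders are given as values only. The ratio of the summed FPKM of the classical chains to that of a leukocyte gene in the same library depended on the gene. Against Ptprc, the CD45 gene, it was 62.7 ± 17.8 in WT and 61.2 ± 8.83 in KO, with overlapping ranges, and WT Ptprc rests on 13, 5 and 8 counts. Against Tyrobp, an adaptor of myeloid cells, it was 20.3 ± 14.1 and 11.1 ± 3.45, also with overlap. Against Cd53, a tetraspanin, it was 16.4, 11.4 and 14.7 in WT and 123, 29.0 and 99.8 in KO, without overlap. The ratios to all 7 pan-leukocyte genes were computed after the data were seen, and 6 overlapped between the groups. Of these 7 genes, 5 entered the test through KO only. Tyrobp, for example, had 4, 4 and 2 counts in WT. With so few counts the WT ratios vary widely, so an overlap says little. Cd53 had 21, 16 and 26 counts in WT. For Lyz2 and Adgre1, with at most 2 counts in any WT library, no ratio was formed. Both entered the test through KO only. Their log2 fold changes, 7.11 and 5.58, rest on these few WT reads and are not ranked against the classical chains. H2-DMa did not follow Ptprc, and its ratio fell from 10.6 ± 2.78 to 1.48 ± 0.202 without overlap.

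**Figure D5:**
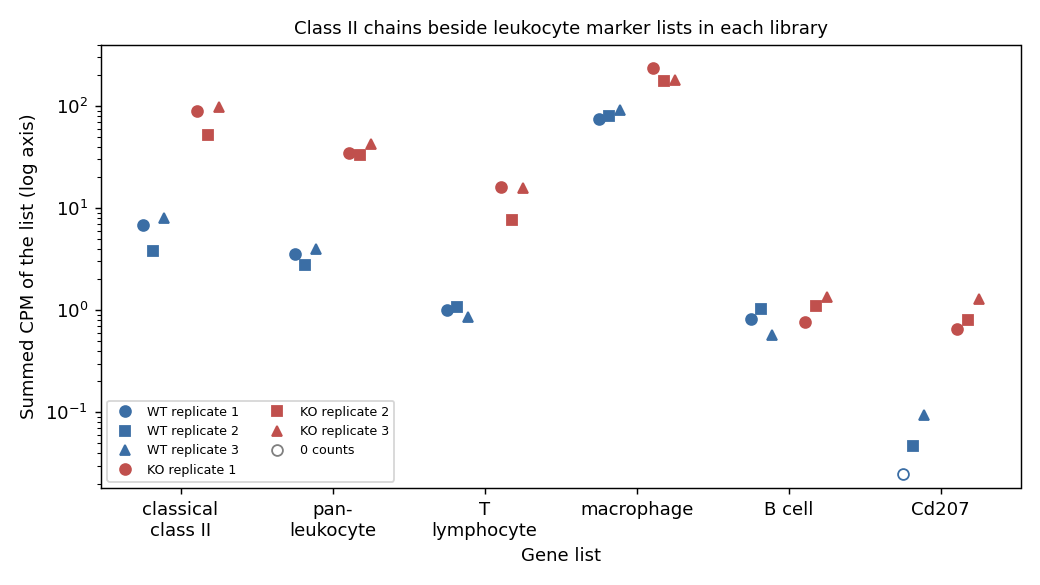
Summed CPM of the 3 classical class II chains, of 4 leukocyte marker lists and of Cd207 in each library, on a log axis, WT in blue and KO in red, with 0 as an open symbol. The class II, pan-leukocyte, T lymphocyte and macrophage sums and Cd207 are apart between the groups, while the B cell sum overlaps and reaches at most 1.35 CPM.

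Class I genes, which nearly all cells express, changed less and in both directions. Of 9 tested, 3 rose, 4 fell and 2 did not pass, with a median of -0.32, beside 31.8% higher and 30.2% lower over all tested genes. The 4 that fell became 2 without WT replicate 3 or KO replicate 1, and 6 under the length correction. B2m, the light chain, rose by 1.71 (SE 0.235) and Nlrc5, the class I counterpart of Ciita, gave 15, 58 and 11 counts for WT and 189, 135 and 300 for KO (3.0, SE 0.553, and 4.10 without WT replicate 2). H2-K1 rose by 0.51 (SE 0.104), but under the length correction by 0.08 with an adjusted p of 0.498, and the peptide transporter genes Tap1 (-0.45) and Tap2 (-0.74) and Tapbp (-0.83), which encodes tapasin, fell. Tap1 did not pass without WT replicate 2 or 3 or KO replicate 1 or 2 (adjusted p = 0.108, 0.0665, 0.0637 and 0.0927). The summed classical class II chains were 0.0415 ± 0.0149 of H2-K1 in FPKM in WT and 0.380 ± 0.0902 in KO, without overlap.

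Among 11308 genes outside the lists with a mean count of at least 50, Arhgap30 had the profile over the 6 libraries nearest to the mean profile of the 6 chain and chaperone genes, at a root mean square distance of 0.171 on the log2 scale. Gclm, Eepd1, Trex2, Id3, Peak1, Kif21b, Thsd4, Smtnl2 and Trp73 followed, the last at 0.219. The members themselves lay farther from their own mean, from 0.370 for Cd74 to 1.17 for H2-DMb1, because the mean joins the classical chains with the flatter H2-DM genes. Arhgap30 was counted at 13.0, 11.9 and 15.1 in WT and at 99.2, 72.0 and 114 in KO. Profiles were taken as log2(CPM + 0.5). The addend compresses low values, such as the WT mean of 0.621 CPM for Arhgap30, so its nearness depends partly on the addend.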

How the data were processed

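Total RNA of separated corneal epithelium was measured in 6 libraries. Reads were filtered and aligned with Bowtie2 2.2.5, and RSEM 1.2.12 estimated gene levels (the labels name mm9, while the coordinates in the table are those of GRCm38). The methods describe rRNA depletion and single-end reads on a BGI instrument, the labels an Illumina kit. Strand is not stated. The deposited table gives estimated counts, FPKM and TPM per library, as made by the authors. FPKM of the authors divides by length and library total without composition factors. The authors' averages and the columns of their own DESeq2 comparison were not used. Between 30.4% and 32.3% of genes per library had a count that was not whole.

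Estimated counts were rounded and tested in edgeR 4.0.16 (R 4.3.3; filterByExpr, TMM, quasi-likelihood test, no covariate beside genotype), and p-values were adjusted by Benjamini-Hochberg over 13305 genes, and the procedure was tested on simulated data. A gene entered through KO only where all KO libraries, but not all WT libraries, reached the filter's level of 10 counts in a library of median size. SEs were derived from the estimate and the root of its F statistic. CPM values were scaled by TMM factors (1.01 to 1.05 in WT, 0.952 to 0.990 in KO). Each group holds 3 biological samples by the methods. Intervals of pooled counts are exact and conditional on the sum, at 95%, and cover counting error only. The authors' FPKM was used for ratios and orders, and the deposited TPM only for the share of the 8 genes. Promoters came from a RefSeq table and overlaps from GENCODE annotation of GRCm38.

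The members and lists were chosen with earlier results of these data known. Some genes of the lists are counted with their list but not reported singly here. The genes named were Rela, the 8 members, any gene of the lists, and 10 genes outside the lists. Among genes with a mean count of at least 50, these 10 had the centred log2(CPM + 0.5) profiles nearest to the mean of the chain and chaperone members. Alternatives were other normalizations (RLE, library totals, TMM without the 20 largest genes), filters (none, or a mean of 50), robust dispersion, DESeq2 1.42.0, limma 3.58.1 on log2(FPKM + 1) and log2(FPKM + 0.1), a gene length correction, the replicate number as a block, and leaving out each library.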

Additional observations from a re-analysis of the deposited data

How the results depend on the processing

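Of the 8 genes, 7 kept direction and call under every one of the 17 alternatives that tested them, and a filter at a mean count of 50 left 5 called because Ciita and Cd207 were then not tested. Over the alternatives the log2 fold change lay between 3.15 and 4.18 for H2-Aa, 3.05 and 4.04 for H2-Ab1, 2.45 and 3.57 for H2-Eb1, 2.42 and 3.26 for Cd74, 0.43 and 0.87 for H2-DMa, 0.25 and 3.71 for Ciita and 0.61 and 5.0 for Cd207, the low ends of the last being those with a pseudocount of 1 FPKM. H2-DMb1, which did not pass, turned sign with library totals (-0.083), no filter (-0.0015), limma with a pseudocount of 1 (-0.0693) or 0.1 (-0.0872) and the length correction (-0.56, adjusted p = 0.0681), and lay between -0.15 and 0.18 when 1 library was left out. Other genes that did not pass turned sign as well. Ifngr1 was at -0.038 with library totals, -0.0139 and -0.0136 with the 2 pseudocounts and -0.26 with the length correction, and between -0.15 and 0.32 without 1 library. Cd68 was at -0.0080 with library totals, -0.0204 and -0.0215 with the 2 pseudocounts and -0.50 with the length correction, where it passed (adjusted p = 0.0121), and Cd79b at -0.0176, -0.0092, -0.0168 and -0.52 in the same order. Without 1 library Cd68 lay between -0.0343 and 0.22 and Cd79b between -0.30 and 0.34. Of the 86 listed or profile-matched genes called, 76 kept their call under every alternative that tested them, 10 lost it under at least 1 and none turned sign. The length correction called 6095 genes lower and 2838 higher, against 4022 and 4231, and library totals 4630 and 3709. That correction moved the median of all genes from 0.01 to -0.28, and DESeq2 moved it to 0.11. Leaving out 1 library gave 7282 to 8145 calls against 8253. Measured as TPM, the share of the 8 genes was 0.00348% in WT and 0.0214% in KO.

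Deviations of same-numbered libraries from their group means correlated at 0.05, -0.02 and 0.06, and those of differently numbered libraries at -0.17 to 0.11. These values cannot tell whether same-numbered samples shared a day or batch, which the titles do not state. With the replicate number as a block 8083 genes were called, and 7 of the 8 members. The depth limits Cd207, Ciita and the other class II chains most, since each had 5 counts or fewer in any WT library. It also limits the WT ratios to Ptprc and to the other pan-leukocyte genes with few WT counts.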
